A study of Homo sapiens with 8 samples.

Results

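The response of WSB2 knockdown cells to TNF-α was read in 4 of the 8 RNA-seq libraries of the study: 2 libraries of U2OS cells with a WSB2 shRNA taken 5 h after TNF-α was added, and 2 of the same cells left unstimulated. U2OS is a human osteosarcoma line. All 8 libraries are total RNA of cells that carry an shRNA; the other 4 carry a control shRNA, with and without the same stimulus. The cells with the WSB2 shRNA are called KD cells here and the others control cells. The knockdown lines of the study were made by lentiviral infection and puromycin selection, and its methods describe no cloning of single cells. The labels give the genotype of the control cells as WT. The labels give neither the concentration of TNF-α nor which WSB2 hairpin was used, and they do not say whether the 2 libraries of a group come from separate cultures, so p-values measure only the spread between these libraries. The 4 libraries were picked by their labels and not by a measured value. This part of the study and the gene lists were chosen with earlier results of these data known.

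TNF-α is a cytokine that binds TNF receptor 1 and, through a membrane-bound complex of adaptors and ubiquitin ligases, activates the IKK kinases. These mark the IκB inhibitors for degradation, and the released NF-κB dimers, such as RelA with p50, enter the nucleus and switch on chemokines, cytokines, survival genes and their own inhibitors. WSB2 is the substrate-recognition part of a cullin 5 ubiquitin ligase, and the study asks whether it targets methylated RelA for degradation.

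NF-κB dimers bind short κB sites in DNA. The windows below are shown because they hold a match to such a site and belong to genes that answered TNF-α in both cell lines. Genes that answered without a match are not shown, so the windows do not tell how common matches are among such genes. Each is 30 bases from the RefSeq promoter of the gene (GRCh38.p14, 250 bases before to 50 after the start), written 5′ to 3′ on the strand of the gene, and the capitals mark a 10-base match to the NF-κB consensus on either strand.
NFKBIA: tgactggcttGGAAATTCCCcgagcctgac
TNFAIP3: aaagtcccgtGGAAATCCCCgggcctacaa
NFKB1: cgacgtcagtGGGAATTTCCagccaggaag
BIRC3: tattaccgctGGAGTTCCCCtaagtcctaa
CCL20: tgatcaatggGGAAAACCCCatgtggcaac
CXCL3: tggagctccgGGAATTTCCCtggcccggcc
IL32: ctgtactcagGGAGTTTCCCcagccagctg
SDC4: cgcttccactGGGGAATTCCgggcggggtg
TAP1: gcctgttcctGGGACTTTCCgagagccccg
The windows lie at chr14:35404811-35404840 (NFKBIA, minus strand), chr6:137867194-137867223 (TNFAIP3, plus strand), chr4:102501300-102501329 (NFKB1, plus strand), chr11:102317339-102317368 (BIRC3, plus strand), chr2:227813753-227813782 (CCL20, plus strand), chr4:74038748-74038777 (CXCL3, minus strand), chr16:3065295-3065324 (IL32, plus strand), chr20:45348502-45348531 (SDC4, minus strand) and chr6:32853757-32853786 (TAP1, minus strand). The match in NFKBIA starts 81 bases before the start of the gene, and that in NFKB1 49 bases before it. A match was present in 10.8% of 27305 RefSeq promoters. Only 176 of the 275 genes with a clear rise, defined below, had a promoter in the table, which is under 80%, so the share of matches among them was not compared with that of all promoters. A match is a run of letters and was not tested for binding.

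The targeted gene was low in all 4 KD libraries. WSB2 stood at 8.38 and 8.52 FPKM in unstimulated KD cells and at 9.002 and 9.18 FPKM after TNF-α, against 27.7 and 28.00 FPKM in unstimulated and 25.1 ± 0.196 FPKM (SD, n = 2) in stimulated control cells. Its change with TNF-α in KD cells was 0.09 ± 0.068 on the log2(FPKM + 1) scale (SE, n = 2 and 2; limma adjusted p = 0.259). FPKM is a read count scaled to exon length and sequencing depth, and the depth was between 15601098 and 18677023 reads per library. Of 10 leukocyte markers 4 or 5 were above 0 in each library, with a summed level of at most 0.597 FPKM, and ITGAM alone had enough reads to be tested. It was called higher in the deposited values of KD cells (0.41, adjusted p = 0.00154) and of control cells (adjusted p = 0.0362), and in neither after the correction described below. The 8 endothelial markers summed to at most 2.22 FPKM in a library, and of 6 tested 4 were called lower and 0 higher in the corrected fit of KD cells, where 27.7% of all genes were called lower and 29.2% higher. The 10 osteosarcoma line genes summed to between 333 and 495 FPKM, with VIM and COL1A1 the most abundant, and of 8 tested 3 were called higher and 1 lower in the corrected fit, beside 29.2% and 27.7% of all genes. BMP2, a ligand gene, rose clearly, and the bone transcription factor gene RUNX2 was the one called lower.

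The 2 unstimulated KD libraries stood apart from the other 6, and every TNF-α comparison in KD cells is made against them. Mitochondrial genes took 4.10% and 4.42% of their reads and 1.11% to 2.03% in the other 6. Averaged over reads, the GC content of the genes hit was 49.95% and 49.5% against 52.6% to 53.3%, and ribosomal protein genes took 4.07% and 3.67% of the reads against 5.88% to 7.75%. Genes with at least 1 read numbered 26225 and 26397, against 22072 to 22957. The 10 epithelial markers, led by KRT8 and KRT18, summed to 234 and 217 FPKM in the unstimulated KD libraries and to between 447 and 579 FPKM in the others, with EPCAM and CDH1 under 1 FPKM in the 4 KD libraries. Of 8 tested, 3 were called higher and 0 lower in the deposited values and 2 higher and 3 lower in the corrected fit, the latter beside 29.2% and 27.7% of all genes. The stimulated KD libraries were within or next to the range of the 4 control libraries on each of these measures. Whether the difference comes from the knockdown or from the making of these 2 libraries cannot be told apart. The 2 unstimulated control libraries differed most from each other, with a variance of 97.8 times the sampling noise, against 2.25 to 11.6 times in the other groups.

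In the deposited values, most genes passed the test between stimulated and unstimulated KD cells. Of 16528 genes tested, 5141 were higher (31.1%) and 5187 lower (31.4%) after TNF-α at a limma adjusted p under 0.05, while in control cells 512 were higher (3.1%) and 189 lower (1.14%). Scaling the libraries to their total reads turned the split in KD cells to 3309 higher and 7240 lower, with the median of all genes at -0.19. The change followed the base composition of the genes. With the genes ordered by GC content and cut into 10 equal bins, the lowest bin had a median log2 fold change of -0.73 and the highest 0.67. Across 16520 genes with a known GC content, Spearman's rho between GC content and the log2 fold change was 0.68 in KD cells and 0.06 in control cells; genes are not independent replicates, and all of them share the same 4 libraries. Exon length had a weaker relation than GC content in KD cells, with a rho of -0.20. In control cells its rho was 0.20, above the 0.06 of GC content.

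**Figure D1:**
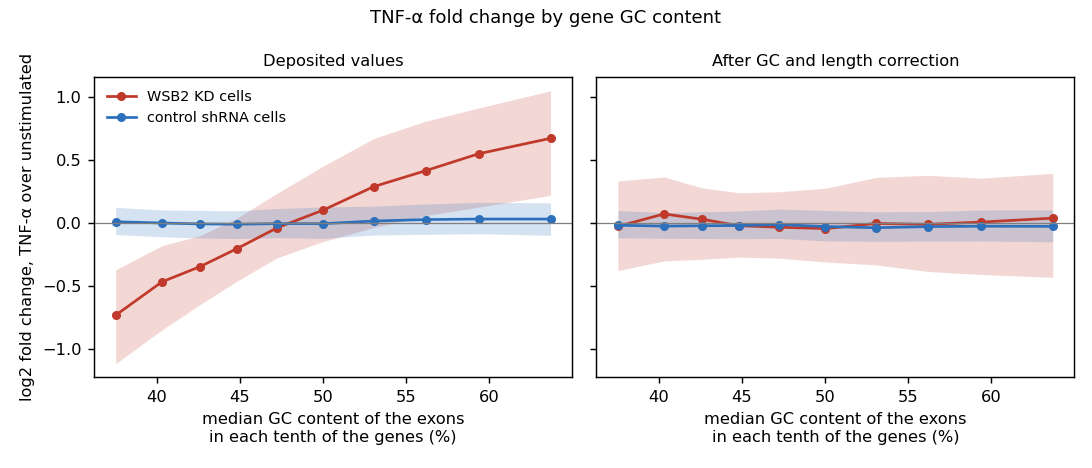
Median log2 fold change with TNF-α (y axis) in 10 bins of genes by GC content (x axis, %), for KD cells (red) and control cells (blue), before and after a correction for GC content and exon length; the bands hold the middle of the genes from the lower to the upper quartile. In the deposited values the KD medians run from -0.73 to 0.67, and the control medians stay near 0.

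A smooth trend on GC content and exon length was therefore subtracted from each library. After it, rho with GC content was -0.003 in KD cells. The corrected fit still called 4827 genes higher (29.2%) and 4569 lower (27.7%) in KD cells, against 614 higher (3.72%) and 298 lower (1.8%) in control cells. Of the 5140 genes with a deposited rise and a known GC content, 3288 (64.0%) stayed called, 1741 were no longer called and 111 were called in the opposite direction. Of the 5183 with a deposited fall, 2739 (52.8%) stayed called, 2036 were lost and 408 turned. A further 2850 genes were called after the correction alone. The relation with GC content was gone, which holds by construction, as a trend on GC content had been subtracted. The corrected change still followed the level of the genes. Among 2445 genes with a mean of at least 20 FPKM, 72.8% were called higher and 6.79% lower in KD cells, while among 4898 genes under 1 FPKM 17.0% were higher and 40.6% lower. In control cells the same genes of at least 20 FPKM were called higher in 7.89% of cases.

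Among genes whose deposited call was lost, the mitochondrial ribosomal protein gene MRPL23 stood at 6.55 and 3.55 FPKM in unstimulated and 11.2 and 12.4 FPKM in stimulated KD cells, a log2 change of 1.12 in the deposited values and 0.45 after correction (adjusted p = 0.0604). The other 4 largest lost rises were MTX1P1, ASPHD1, INAFM1 and the histone gene HIST1H2AB, with deposited changes from 1.07 to 1.94. For MTX1P1 a single library decided the rise, with 7.46 and 41.6 FPKM after TNF-α. The 5 largest lost falls were short genes, the microRNA precursors MIR590 and MIR4477B and the mitochondrial tRNA genes MT-TI, MT-TG and MT-TD. MIR590 went from 6.76 and 7.48 FPKM to 0.597 and 0.652 FPKM, and its change of -2.32 became -1.17 with an adjusted p of 0.168. Of the deposited rises that stayed, 14.0% were also called higher in control cells, against 1.26% of those that were lost and 3.72% of all genes. Of the deposited falls, 5.11% of those that stayed and 1.03% of those lost were called lower in control cells, beside 1.8% of all genes. In control cells 38 of the 2739 falls that stayed and 31 of the 2036 lost were called higher.

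For these reasons a gene is said to have answered TNF-α clearly in KD cells if it passed an adjusted p under 0.05 and a log2 fold change beyond 1 in both the deposited and the corrected fit, in the same direction and with no overlap of the 2 and 2 libraries. By this rule 275 of 16520 genes rose (1.66%) and 242 fell (1.46%). With the unstimulated control libraries put in place of the unstimulated KD libraries, a comparison that mixes the knockdown with the stimulus, the counts were 206 and 52. With a further trend on the level of the genes they were 184 and 250. The control libraries, none of which enters the KD comparison, differed between the directions. Of the 275 genes that rose, 188 (68.4%) were also called higher in control cells and 0 lower, and of the 242 that fell 25 (10.3%) were also called lower and 10 called higher. These counts stand against 3.72% and 1.8% of all genes called higher and lower in control cells. When 1 library was left out, the 188 ranged from 152 to 201 and the 25 from 13 (without replicate 2 of the stimulated control cells) to 28, and the 10 became 51 without replicate 2 of the unstimulated control cells and between 1 and 4 without any of the other 7 libraries. The contrasts share the pooled estimate of the spread and the trend, which was fitted against the mean of all 8 libraries.

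The 4 marker genes of the TNF-α response all rose clearly in KD cells. NFKBIA (ENSG00000100906, chr14:35401511-35404749), which encodes the inhibitor IκBα, went from 16.3 and 14.4 FPKM in the unstimulated libraries to 163 and 165 FPKM. Its log2 change was 3.34 in the deposited values and 2.84 ± 0.066 after correction (SE, n = 2 and 2; limma adjusted p = 3.4e-07), and 2.74 in control cells. The stimulated libraries lay far above the unstimulated ones, with no overlap, for this gene and for the next 3. TNFAIP3 (ENSG00000118503, chr6:137867188-137883312), the ubiquitin-editing enzyme A20 that ends TNF receptor signalling, went from 2.60 and 2.61 FPKM to 41.4 and 42.3 FPKM, a corrected change of 3.42 ± 0.062 (adjusted p = 9.18e-08). CXCL8 (ENSG00000169429, chr4:73740506-73743716), the neutrophil chemokine interleukin-8, went from 4.97 and 4.24 FPKM to 204 and 204 FPKM, a deposited change of 5.20 and a corrected change of 5.95 ± 0.093 (adjusted p = 7.32e-08). The GC content of its exons is 32.3%, and the correction raised its value. CCL2 (ENSG00000108691, chr17:34255218-34257203), the monocyte chemokine, went from 1.35 and 1.30 FPKM to 49.2 and 49.1 FPKM, a corrected change of 4.46 ± 0.075 (adjusted p = 7.32e-08). Its change in control cells was 4.34, next to the 4.46 of KD cells. In bulk RNA, a larger share of cells that express a gene and more RNA per cell cannot be told apart. Coordinates are those of GENCODE release 29 on GRCh38.

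**Figure D2:**
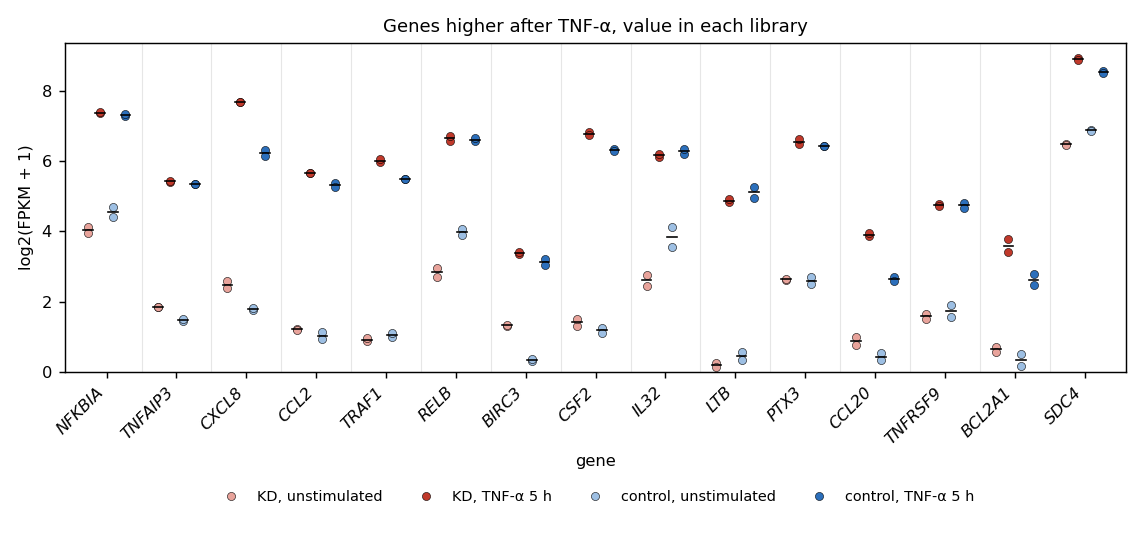
Values in each library (points) and their mean (bars) for 15 genes that rose after TNF-α, on the log2(FPKM + 1) scale (y axis), in KD cells (red) and control cells (blue), unstimulated (light) and after 5 h (dark). In each gene the stimulated libraries lie above the unstimulated ones of the same cells, with CXCL8 at 204 FPKM in both stimulated KD libraries.

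CXCL8, CCL2 and TNFAIP3 were also among the 10 largest clear rises, and the other 7 follow. CSF2, which encodes the growth factor GM-CSF, went from 1.47 and 1.84 FPKM to 111 and 105 FPKM, a corrected change of 5.20 against 5.16 in control cells. TRAF1, an adaptor of TNF receptors, went from 0.837 and 0.940 FPKM to 61.8 and 65.04 FPKM, with 4.74 against 4.34. LTB, lymphotoxin beta of the TNF superfamily, was nearly silent at 0.197 and 0.101 FPKM and reached 27.6 and 29.02 FPKM. The corrected change of LTB was 4.04, and 4.63 in control cells; the difference passed the test after correction (adjusted p = 0.0138) and not in the deposited values (adjusted p = 0.959). PTX3, a secreted pattern-recognition protein, went from 5.12 and 5.29 FPKM to 87.7 and 97.3 FPKM, and the chemokine CCL20 from 0.981 and 0.715 FPKM to 13.5 and 14.3 FPKM. TNFRSF9, the receptor 4-1BB, went from 2.13 and 1.86 FPKM to 26.5 and 25.2 FPKM, and the anti-apoptotic BCL2A1 from 0.649 and 0.476 FPKM to 9.57 and 12.6 FPKM. The 10 genes were called higher in control cells too, with corrected changes there from 2.25 (CCL20) to 5.16 (CSF2). All fold changes are on the log2(FPKM + 1) scale and are too small for genes with about 1 FPKM or less.

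The counts of members that follow are from the corrected fit, unless said otherwise, and are to be read against all genes, of which 29.2% were called higher, 27.7% lower and 1.66% rose clearly in KD cells, and 3.72% were called higher in control cells. Among genes with a mean of at least 20 FPKM, 72.8% were called higher and 6.79% lower in KD cells. The share of all genes is thus a low bar for lists of abundant genes. Of 18 members of the TNF receptor complex tested, 9 were called higher and 4 lower, the latter below the 27.7% of all genes, with a median of 0.27 against 0.00 over all genes, and only TRAF2, an adaptor of the complex, rose clearly. TRAF2 went from 21.4 and 18.5 FPKM to 68.5 and 64.2 FPKM, a corrected change of 1.05 against 0.60 in control cells. The receptor TNFRSF1A had a corrected change of 0.45 (adjusted p = 0.00113) in KD cells and -0.02 in control cells. The kinase adaptor TAB2 had -0.57 in KD cells and 0.10 in control cells, where 1 of the 18 members was called.

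Of 18 NF-κB subunits and feedback genes, 16 were called higher and 0 lower in the corrected fit of KD cells, 11 rose clearly, and 17 were called higher in control cells, against 29.2%, 27.7%, 1.66% and 3.72% of all genes. Their median was 1.87 after correction in KD cells and 1.66 in control cells. The subunit gene RELB went from 6.73 and 5.53 FPKM to 94.3 and 103 FPKM, a corrected change of 3.12. NFKB2, which encodes p100, went from 15.3 and 13.1 FPKM to 117 and 119 FPKM, and NFKB1, which encodes p105, from 8.89 and 9.92 FPKM to 52.5 and 53.5 FPKM. In stimulated control cells RELB stood at 93.5 and 98.6 FPKM. The inhibitor gene NFKBIE had a corrected change of 3.28, NFKBIB one of 1.39, and the ubiquitin ligase gene BIRC3 one of 2.83. RELA itself changed by 0.77 (adjusted p = 0.000205). BIRC2 and NFKBIZ did not pass the test in the corrected fit of KD cells, with adjusted p of 0.105 and 0.487. In the deposited values 2 of the 18 were called lower, BIRC2 (-0.40, adjusted p = 0.012) and REL (-0.42, adjusted p = 0.0081), and the correction turned both to positive values, 0.18 and 0.31. BIRC2, the ubiquitin ligase cIAP1, stood at 17.6 and 18.6 FPKM before and 13.7 and 13.2 FPKM after TNF-α in KD cells, and at 4.27 and 5.30 FPKM before and 12.95 and 11.6 FPKM after it in control cells. The difference of the 2 responses of BIRC2 was -1.03 (adjusted p = 0.00359). The unstimulated levels of the lines lay far apart and the stimulated ones close together.

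Among secreted factors, 9 of 13 chemokines and 12 of 16 interleukins and colony-stimulating factors were called higher in the corrected fit of KD cells, with 1 chemokine and 0 interleukins lower, against 29.2% of all genes higher and 27.7% lower. The clear rises were 4 and 8, and each of these 12 genes was also called higher in control cells. Beside CXCL8, CCL2 and CCL20, the chemokine CXCL3 rose from 0.227 and 0.444 FPKM to 3.18 and 2.82 FPKM. CXCL10, CXCL5 and CCL7 had corrected changes of 1.48, 1.47 and 1.43, but their deposited changes were under 1. CX3CL1 was the chemokine called lower, with -0.42 in KD cells (-0.02 in the deposited values) and -0.44 in control cells. The cytokine IL32 rose from 5.75 and 4.46 FPKM to 68.7 and 72.7 FPKM, and IL23A from 0.128 and 0.393 FPKM to 6.24 and 6.50 FPKM. TNF, the gene of the stimulus itself, rose from 0.211 and 0.0309 FPKM to 5.46 and 5.70 FPKM. LIF, IL11 and CSF1 had higher unstimulated levels and corrected changes of 1.69, 1.62 and 1.62. IL6 remained below 1 FPKM in all 4 KD libraries and did not pass the test (0.31, adjusted p = 0.0997).

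Of 12 survival genes 9 were called higher and 1 lower, where 29.2% and 27.7% of all genes were, and 5 rose clearly (1.66% of all genes): BCL2A1, BIRC3, the early response gene IER3, the mitochondrial superoxide dismutase SOD2 and TNFAIP2. SOD2 went from 3.04 and 3.12 FPKM to 10.7 and 10.9 FPKM, and IER3 from 44.3 and 50.05 FPKM to 313 and 313 FPKM. GADD45B was the member called lower, at -0.26 in the corrected fit and 0.35 in the deposited values, and it was also called lower in control cells (-0.68). Of 11 adhesion genes 6 were called higher and 1 lower, beside the same 29.2% and 27.7%, and the proteoglycan SDC4 alone rose clearly, from 88.7 and 87.2 FPKM to 484 and 469.7 FPKM. ICAM1 and VCAM1, classic endothelial targets of TNF-α, were called higher in the corrected fit from very low levels, with ICAM1 at 0.123 and 0.210 FPKM before and 2.06 and 1.69 FPKM after stimulation. VCAM1 reached 0.201 and 0.199 FPKM.

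Genes of antigen presentation were called higher in 16 of 17 cases in KD cells, with 0 lower, and in 5 of 17 in control cells, against 29.2%, 27.7% and 3.72% of all genes. Of all genes with a mean of at least 20 FPKM, 72.8% were called higher in KD cells. Their median was 1.11 in the deposited values, 0.66 after correction and 0.21 in control cells. Clear rises were TAP1 and TAPBP, which load peptides onto MHC class I, and the immunoproteasome subunit PSMB9. TAP1 went from 6.29 and 6.52 FPKM to 30.1 and 27.6 FPKM, with 1.65 against 1.44 in control cells. PSMB9 had 1.35 in KD cells and was not called in control cells (0.39, adjusted p = 0.159). The remaining members called in KD cells include HLA-B and HLA-C at 0.62 and 0.47, beside 0.35 to 1.13 for the housekeeping genes GAPDH and PGK1 below. With unstimulated control libraries in place of the unstimulated KD libraries, 5 of the 17 were called higher, beside 1099 of all 16520 genes.

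Of 22 interferon-stimulated genes 11 were called higher and 7 lower in KD cells, the falls near the 27.7% of all genes and the rises beside 29.2%, and 8 were called higher and 0 lower in control cells, beside 3.72% and 1.8%. GBP2, IRF1 and GBP1 rose clearly, with corrected changes of 1.76, 1.60 and 1.47. IRF1, a transcription factor that NF-κB induces, went from 1.19 and 0.877 FPKM to 6.54 and 6.11 FPKM. IFI44, the member with the largest deposited fall, went from 20.5 and 21.6 FPKM to 8.09 and 8.75 FPKM, a level near the 9.87 and 8.69 FPKM of stimulated control cells. Of 11 complement and acute-phase genes 6 were called higher (29.2% of all genes) and 2 lower, below the 27.7% of all genes, with clear rises of PTX3, C3 (1.23) and SAA1 (1.24).

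Immediate-early genes were called higher in 14 of 19 cases and lower in 1, against 29.2% and 27.7% of all genes, and JUNB, FOSL1, EGR1 and MYC rose clearly. JUNB, a component of AP-1, went from 23.2 and 17.6 FPKM to 186 and 191 FPKM, and FOSL1 from 39.2 and 35.9 FPKM to 232 and 232 FPKM. Of 13 genes of the ERK output list 9 were called higher and 1 lower, beside the same shares, with clear rises of the growth factor genes HBEGF and AREG, the phosphatase DUSP5 and the receptor EPHA2. HBEGF went from 5.17 and 4.93 FPKM to 32.3 and 32.9 FPKM, a corrected change of 2.24 against 1.44 in control cells. Of 17 proteases and plasminogen activation genes 13 were called higher and 1 lower, beside 29.2% and 27.7% of all genes, while 5 were called higher in control cells, beside 3.72%. MMP9, a gelatinase, went from 2.07 and 2.53 FPKM to 27.2 and 28.1 FPKM and PLAU, urokinase, from 8.72 and 7.87 FPKM to 31.5 and 30.9 FPKM; these were the clear rises. Of 16 collagen and matrix genes 8 were called higher, beside 29.2% of all genes, and 0 passed the clear rule. For the lists of this paragraph too, the share called higher was 72.8% among all genes with a mean of at least 20 FPKM.

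**Figure D3:**
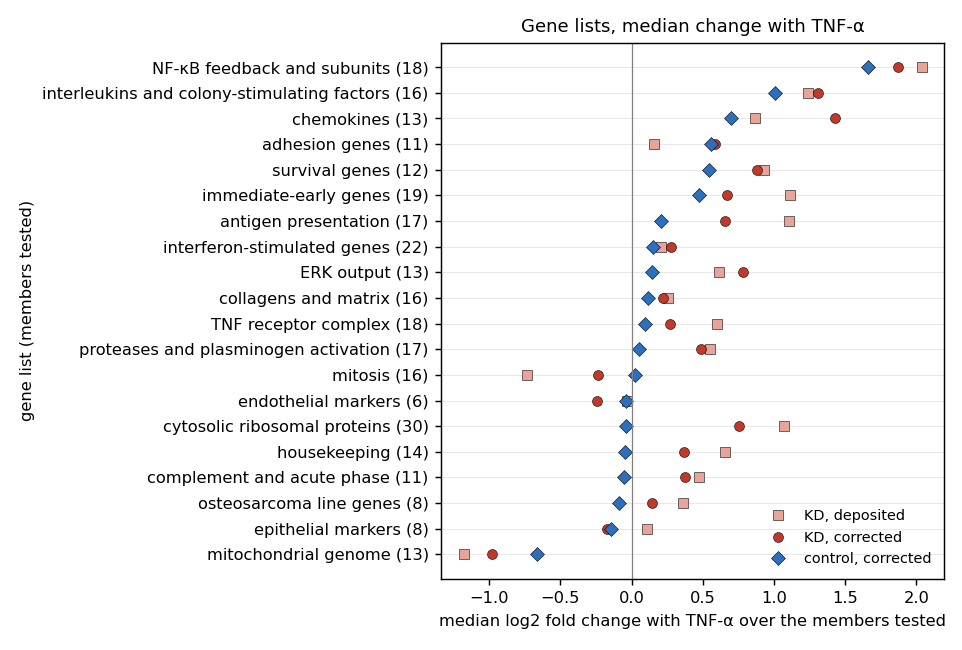
Median log2 fold change with TNF-α (x axis) over the members tested of each gene list (y axis, number of members in brackets), for KD cells in the deposited values (squares) and after correction (circles), and for control cells after correction (diamonds). NF-κB feedback genes lead in both lines, at 1.87 and 1.66 after correction, while ribosomal protein genes stand at 0.75 in KD cells and -0.04 in control cells.

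The 188 genes that rose clearly in KD cells and were also called higher in control cells had a median corrected change of 1.42 in KD cells and 1.16 in control cells. The difference of the 2 responses itself was called higher in KD cells for 87 of the 188 and lower for 5, where over all 16520 genes 19.7% were called higher and 15.3% lower. In the deposited values it was called higher for 121 of the 188 and lower for 4, beside 23.8% and 22.3% of all genes. The unstimulated KD libraries, which stand apart, enter each of these differences. The 188 also had to pass a log2 fold change beyond 1 in KD cells, but only an adjusted p in control cells. That cut favours larger changes in KD cells, so the medians and counts of the 188 cannot be read against all genes. CXCL8 had the larger response in KD cells by 1.45 (adjusted p = 0.00242), with 78.7 and 69.9 FPKM in stimulated control cells, and CCL20 by 1.47 (adjusted p = 0.00302), with 5.52 and 4.96 FPKM there. For both genes the stimulated KD libraries also lay above the stimulated control libraries. AREG and HBEGF followed with differences of 0.99 and 0.81 (adjusted p = 0.00359 and 0.00383). CSF2, CCL2 and PTX3 had differences of 0.04, 0.13 and -0.01, with adjusted p of 0.824, 0.374 and 0.931. TNFAIP3 had the smaller response in KD cells, with a difference of -0.42 (adjusted p = 0.0115), with an unstimulated level of 2.60 and 2.61 FPKM against 1.74 and 1.82 FPKM.

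**Figure D4:**
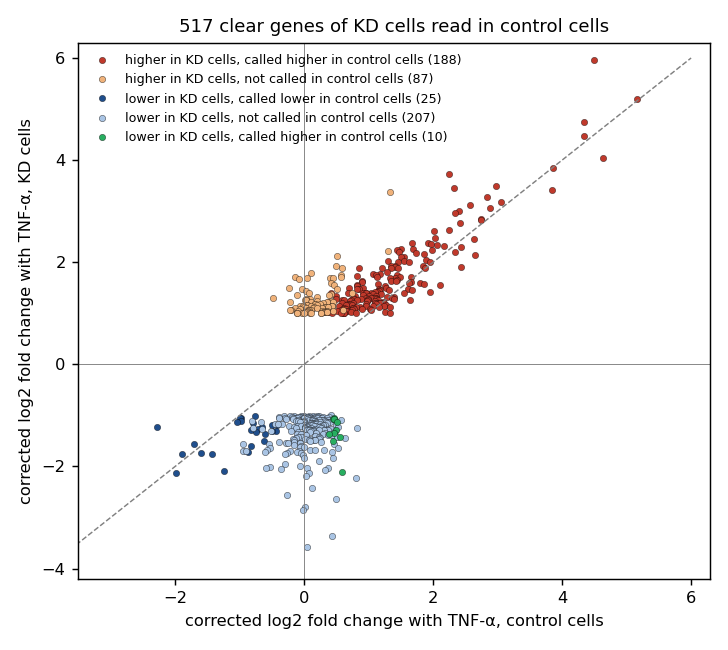
Corrected log2 fold change with TNF-α in control cells (x axis) and in KD cells (y axis) for the 275 genes that rose and the 242 that fell clearly in KD cells; colours give the call in control cells and the dashed line marks equal changes. The 188 genes called higher in both lines lie along or above the line for the most part, while 207 of the 242 genes that fell in KD cells were not called in control cells. The cut on the size of the change was set in KD cells alone, which favours points above the line among the rises.

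Read the other way, of 129 genes that rose beyond a log2 fold change of 1 in both fits of control cells, 124 were called higher in KD cells, 116 of them clearly, and 1 was called lower. The 5 that were not called higher were BIRC2, the cytokine gene IL34 and, named after their values were seen, AC145098.1, BX640514.2 and SNORA71B. Of 21 genes that fell in control cells in this way, 19 were called lower in KD cells and 8 fell clearly. Over all genes, 29.2% were called higher and 27.7% lower in KD cells, and 1.66% rose and 1.46% fell clearly. The 129 and the 21 had to pass the cut on the size of the change in control cells, which all genes did not.

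Among the 25 genes that fell clearly in KD cells and were also called lower in control cells were ID2 and MN1 and, named after their values were seen, BMP4, ACKR3, ID4 and PTCH1. ID2, an inhibitor of basic helix-loop-helix factors, went from 10.6 and 9.52 FPKM to 2.13 and 2.35 FPKM, a corrected change of -2.12 ± 0.083 against -1.99 in control cells. MN1, a transcriptional coregulator, went from 9.33 and 9.63 FPKM to 2.76 and 2.24 FPKM, with -2.09 against -1.25. The stimulated libraries of both genes lay below the unstimulated ones without overlap, in KD and in control cells. The ligand gene BMP4 went from 23.6 and 21.3 FPKM to 9.63 and 9.09 FPKM, and the atypical chemokine receptor gene ACKR3 from 7.06 and 6.93 FPKM to 1.64 and 1.88 FPKM. Their corrected changes were -1.57 and -1.76, against -1.70 and -1.43 in control cells. ID4 and the hedgehog receptor gene PTCH1 had -1.05 and -1.29.

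Of 13 mitochondrial genome genes, 11 were called lower and 2 higher in KD cells, 5 fell clearly, and 9 were called lower in control cells, where over all genes 27.7%, 29.2%, 1.46% and 1.8% were. The median was -0.98 after correction in KD cells and -0.66 in control cells. MT-CO1, a subunit of cytochrome c oxidase, went from 5643 and 6235 FPKM to 2668 and 2590.4 FPKM in KD cells and from 3506 and 3490.0 FPKM to 2045 and 1856 FPKM in control cells. The difference of the responses was -0.35 (adjusted p = 0.157). The reads of this group are counted in the mitochondrial share of the libraries, so group and share move together by construction. The share was 4.10% and 4.42% before and 1.55% and 1.55% after TNF-α in KD cells. In control cells it was 2.02% and 2.03% before and 1.25% and 1.11% after TNF-α. Why the share differs was not tested. With the unstimulated control libraries in place of the unstimulated KD libraries, 0 of the 13 were called lower, beside 778 of all 16520 genes.

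The other 217 clear falls were not called lower in control cells. The 242 clear falls held 59.9% protein-coding genes, against 81.7% of all genes tested, with 48 pseudogenes and 39 long noncoding genes. Their coding members had a median GC content of 40.5% against 48.5% of all coding genes, and a median exon length of 6044 against 5145 bases. MALAT1, a nuclear-retained long noncoding RNA, stood at 15.02 and 17.9 FPKM in unstimulated and 1.35 and 1.76 FPKM in stimulated KD cells, a corrected change of -2.18 ± 0.17. In control cells it was at 1.38 and 2.76 FPKM before and 2.56 and 1.87 FPKM after TNF-α. The stimulated KD libraries thus lay within or just below the range of the 4 control libraries, and only the unstimulated KD libraries were high. NEAT1, the nuclear RNA of paraspeckles, had the same pattern, with 7.86 and 6.97 FPKM before and 1.02 and 0.931 FPKM after TNF-α in KD cells and -0.29 in control cells. NEAT1 was named after its values were seen.

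Among 16 mitosis genes 8 were called lower (27.7% of all genes) and 4 higher, below the 29.2% of all genes, in KD cells, 5 fell clearly (1.46% of all genes), and in control cells 0 were called lower and 1 higher. CENPF and CENPE, large proteins of the kinetochore, had corrected changes of -1.72 and -1.46, and the mitotic motor KIF11, the kinase TTK and the topoisomerase TOP2A -1.16, -1.15 and -1.28. CENPF went from 21.4 and 24.5 FPKM to 3.54 and 3.81 FPKM in KD cells, and stood at 2.22 and 3.66 FPKM before and 4.74 and 4.35 FPKM after TNF-α in control cells. CCNB1, AURKB, CDC20 and PLK1, which drive mitotic entry and exit, were called higher, with 0.54, 0.40, 0.39 and 0.36. With the unstimulated control libraries in place of the unstimulated KD libraries, 2 of the 16 were called lower and 0 higher. Of all 16520 genes, 778 were called lower and 1099 higher in that setting.

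Of the 10 largest clear falls, 7 were pseudogenes or short noncoding genes, whose reads can be shared with near-identical copies and whose values are therefore uncertain. They are TUFMP1, KLF2P1, RNU6-26P, MIR1254-1, SNX18P14, FAR2P4 and PGM5P2, with corrected changes from -2.02 to -3.59. TUFMP1 stood at 20.4 and 26.96 FPKM in unstimulated KD cells and between 1.39 and 3.73 FPKM in the 6 other libraries. KLF2P1, a pseudogene of KLF2, fell by 3.36 after correction while KLF2 itself had 0.97. In control cells 0 of the 7 were called, where only 3.72% of all genes were called higher and 1.8% lower.

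**Figure D5:**
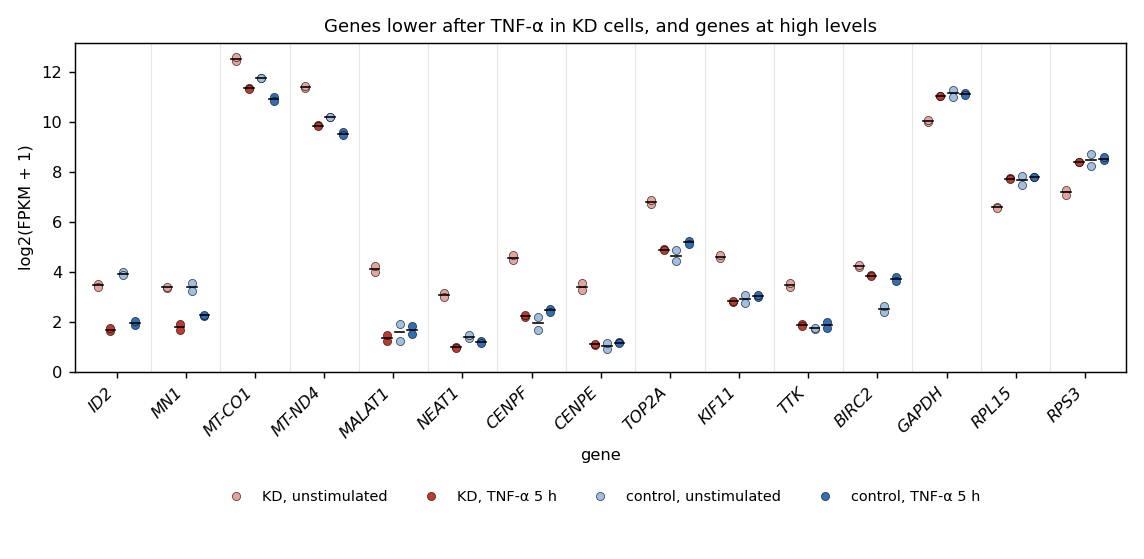
Values in each library (points) and their mean (bars) on the log2(FPKM + 1) scale (y axis) for 15 genes: falls with TNF-α, nuclear RNAs, mitosis genes, BIRC2 and abundant genes, with colours as in the plot of the rises. ID2 and MN1 fall in both lines, whereas MALAT1 and CENPF differ in the unstimulated KD libraries alone, and RPL15 and RPS3 are low there.

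Of the 87 clear rises that were not called in control cells, 60 were protein-coding and 23 pseudogenes, and 19 had the name of a ribosomal protein gene or its pseudogene. Of 30 cytosolic ribosomal protein genes, 26 were called higher and 0 lower in KD cells, beside 29.2% and 27.7% of all genes, and 1 and 0 in control cells, and the medians were 0.75 and -0.04. RPL15 went from 97.7 and 93.3 FPKM to 215 and 213 FPKM in KD cells and stood at 227 and 180.5 FPKM before and 221 and 222 FPKM after TNF-α in control cells. RPS3 had 1.44 in KD cells and 0.03 in control cells. Of 14 housekeeping genes 9 were called higher and 0 lower in KD cells, beside the same shares, and 0 in control cells by limma at an adjusted p under 0.05, with PGK1 at 1.13, PPIA at 0.94 and GAPDH at 0.35. GAPDH stood at 1043 and 1085 FPKM in unstimulated KD cells, at 2116 and 2099 FPKM in stimulated KD cells and at 2511 and 2093 FPKM in unstimulated control cells. Other abundant genes among the 87, named after their values were seen, were the keratin gene KRT17 (1.22) and the metallothionein gene MT2A (1.75). The chemokine gene CCL3 was in the same group at a low level, 0.101 and 0.104 FPKM before and 1.51 and 2.29 FPKM after TNF-α. With the unstimulated control libraries in place of the unstimulated KD libraries, 19 of the 87 were called higher, against 186 of the 188 shared rises. Of all 16520 genes, 1099 were called higher in that setting. That comparison uses the same unstimulated control libraries as the control comparison that defines the 188.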

How the data were processed

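Bulk RNA-seq libraries of U2OS cells with a control or a WSB2 shRNA were read on a NovaSeq (Illumina) at Novogene. The authors deposited FPKM values for 58735 genes in 8 libraries. The submitters' processing notes name GRCh38 (hg38), CASAVA 1.8, fastp, HISAT2 2.0.5, featureCounts 1.5.0-p3 and DESeq2 1.20.0, and the Methods of the study name edgeR. Whether counting used the strand is not given in the sources used here, so a gene and an antisense partner cannot be told apart. Multiplied by gene length and by 1 factor per library, 100% of the FPKM values above 0 came out within 0.05 reads of a whole number, which gave the read counts. Identifiers, positions and exon lengths of all 58735 genes matched GENCODE release 29.

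A gene was kept with 10 or more reads (scaled to median depth) in 2 or more libraries and 15 or more in total (16528 genes, 16520 with a GC content). The test of differences in log2(FPKM + 1) used limma 3.58.1 (R 4.3.3), with a mean per group over all 8 libraries, 4 residual degrees of freedom, a trend of the variance on expression and Benjamini-Hochberg adjustment over all genes. The main fit used the deposited FPKM values, which are not counts, and not the recovered reads. As an alternative, voom was run on the recovered reads. The correction subtracts natural splines with 5 degrees of freedom on GC content and on log2 exon length from each library. Simulated libraries carried the fitted trend on GC content and exon length and the same spread for all genes. In the simulated KD comparison the corrected fit alone still called unchanged genes, mainly at low FPKM, whereas the clear rule kept such calls rare. No shift with the level of the genes was put into the simulation, so it cannot show how rare false clear calls are in the data. The text leans on the clear rule and on the control libraries.

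The members and the 21 gene lists were chosen with earlier results of these data known. Named genes are WSB2, the 4 markers, members of the lists, the 10 largest clear rises and 10 largest clear falls with an approved symbol, the 5 largest rises and 5 largest falls lost on correction, and the 5 highest and 5 lowest differences between KD and control cells; others are marked. Alternatives covered the pseudocount, the filter, the scaling, voom, the correction and each library left out; 3 of them (the correction as a factor on FPKM, the unstimulated control libraries as baseline, a trend on mean expression) were chosen after seeing the data. Python 3.11.15, numpy 2.4.6, pandas 2.3.3 and matplotlib 3.10.9 were used for the tables and plots.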

Additional observations from a re-analysis of the deposited data

Results flagged for a closer look

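The difference between the TNF-α response of KD cells and that of control cells was tested in one fit and called for 3262 genes as higher and 2534 as lower in KD cells after the GC and length correction, on a limma adjusted p under 0.05. The unstimulated KD libraries enter each of these differences, so that a difference of response and a difference of those 2 libraries cannot be told apart.

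Differences of BIRC2, AREG, HBEGF and MT-CO1 are given above. For the TNF-α response, the genes taken up here are only the markers and the largest clear rises named above. Among them, the difference passed the test in both fits for CXCL8 (1.45), CCL20 (1.47), TRAF1 (0.40) and TNFAIP3 (-0.42), in log2 units. The mitochondrial ribosomal protein gene MRPL23 (0.79) also passed, although its rise in KD cells did not after correction. This is not a full list. Over all 188 shared rises, the corrected fit called the difference higher for 87 and lower for 5. Over all 16520 genes it was called higher for 19.7% and lower for 15.3%. The 188 had to pass the cut on the size of the change in KD cells alone, which favours larger changes there. Their counts can therefore not be read against all genes. Higher differences were called for MIR1244-2 (1.94), RPL10P6 (1.86), GAGE2A (1.78), PFN1P1 (1.75) and RPL24P2 (1.72), and lower ones for RNU6-26P (-3.13), MIR1254-1 (-2.29), KLF2P1 (-3.80), FAR2P4 (-2.07), SNX18P14 (-3.02), TUFMP1 (-3.64) and PGM5P2 (-2.40), which are mostly pseudogenes and small RNA genes with reads that can be shared with other copies. The call for GAGE2A was lost with the correction as a factor on FPKM (adjusted p = 0.0623) and without replicate 1 of the unstimulated control, 2 of the stimulated control, 1 of the unstimulated KD or either of the stimulated KD libraries (adjusted p from 0.0613 to 0.0905). That for RPL10P6 was lost with a mean of at least 1 CPM, with the factor on FPKM and without any library but replicate 2 of the stimulated control or 1 of the stimulated KD cells (adjusted p from 0.0528 to 0.101 over these settings). The difference was also called lower for the long noncoding RNA MALAT1 (-2.21).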

How the results depend on the processing

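The clear rises numbered 275 and the clear falls 242. They were 472 and 897 at a pseudocount of 0.1, 473 and 491 with no filter on low reads, 526 and 1116 with voom, 871 and 863 with a correction on exon length alone, and 183 rises with scaling to total reads, which also left 3309 deposited rises. With the unstimulated control libraries in place of the unstimulated KD libraries, which was chosen after seeing the data, the clear falls were 52, the deposited calls 994 higher and 503 lower and the corrected calls 1099 and 778. The correction as a factor on FPKM and the trend on mean expression, also chosen after seeing the data, gave 202 and 184 clear rises and 191 and 250 clear falls. The cause of these changes was not tested.

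Corrected falls in KD cells numbered 2915 at a pseudocount of 0.1 and 2949 with voom, and with no filter 8108 genes rose and 7905 fell. In control cells 369 rose and 128 fell with no filter, and 272 and 72 when only the 4 libraries compared were fitted. The differences between KD and control cells numbered 1321 lower at a pseudocount of 0.1, 1369 lower with voom, 5496 higher and 4429 lower with no filter, 1563 higher with the factor on FPKM and 1758 higher with the trend on mean expression.

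Leaving out each library in turn gave 243 to 341 clear rises and 220 to 279 clear falls. Control rises ranged from 262 to 1392 and control falls from 86 to 990, both highest without replicate 2 of the unstimulated control cells, and the differences from 1429 to 4305 higher and from 1249 to 3370 lower. Of the 275 clear rises, 152 to 201 were called higher in control cells when 1 library was left out, and the count of clear falls called higher there went from 10 to 51 without replicate 2 of the unstimulated control cells and to between 1 and 4 without any of the other 7. WSB2 passed the test in KD cells at a pseudocount of 0.1 (0.22) and with voom (0.30). Its sign turned with the trend on mean expression (-0.16, adjusted p = 0.054) and with the unstimulated control libraries as baseline (-1.52), a setting that sets KD cells against control cells.

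The replicate block left 275 clear rises and 242 clear falls and moved no count in KD cells by over 1.5 times; it moved the deposited calls to 5092 and 5117. The labels do not say that a number marks a shared culture, and the deviations of same-numbered libraries correlated at 0.00552 in KD and -0.128 in control cells. Under the alternatives for 41 gene results apart from WSB2, 794 kept direction and call, 57 kept the direction but not the call, and 4 turned, each with the unstimulated control libraries in place of the unstimulated KD libraries: RNU6-26P (0.0857), SNX18P14 (0.64), PGM5P2 (0.50) and, in the deposited values, MRPL23 (-0.14). With 2 libraries a side, groups that do not overlap are a weak criterion on their own, and genes under 1 FPKM have few reads.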
